A study of Mus musculus with 18 samples.

Results

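The genes described here are 35 macrophage and monocyte markers, followed in mouse cardiac ventricles after deletion of serum response factor, Srf, with and without the hypertrophic drug phenylephrine (PE). They were given as a list of symbols, and each gene was read from its array probe set of highest mean over 18 hearts. All 35 were on the Affymetrix array and passed the filter on low signal, out of 12616 genes tested. The list covers leukocyte surface and actin proteins, growth factor and chemokine receptors, Fc receptors with their adaptors, the chains of complement C1q, lysosomal and bactericidal proteins, markers of resident macrophages, and secreted chemokines.

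All mice were males of the strain labelled CR7BL6, 10 weeks old, and all received 0.7 mg tamoxifen by injection for 3 days, controls included. The mutant hearts are labelled SRFHKO, and the controls were littermates labelled SRF-flex2neo. Without PE there were 4 SRFHKO and 2 control hearts at day 8 after the first tamoxifen dose, and 3 SRFHKO and 3 control hearts at day 25. Another 3 SRFHKO and 3 control hearts were taken at day 25 after PE, which an osmotic minipump delivered between days 10 and 25 at 80 mg/kg/day. The labels used here do not name the promoter that drives the recombinase, so the cell type that lost Srf cannot be named from the labels. Ventricular tissue was used whole, 1 heart per array, and the titles call the replicates biological.

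Macrophages are resident immune cells of the healthy heart, where they clear debris and dying cells and support conduction and repair. Resident cells with Lyve1, Folr2 and Mrc1 largely renew themselves in place, whereas monocytes carrying Ccr2 enter from blood after injury and can become macrophages. Macrophage survival depends on signalling through the CSF1 receptor, and the transcription factor PU.1 directs much of the myeloid gene programme. Srf itself binds CArG boxes and drives genes of muscle and the cytoskeleton.

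The arrays differed in brightness. The 2% trimmed mean of the deposited intensity was between 46.6 and 148, and each array was scaled to the common value of 90.6, so levels below are scaled signals and differences are on the log2(scaled signal + 2) scale. The deletion could not be checked on Srf itself, whose signal overlapped between genotypes in every comparison and whose probes were not placed relative to the deleted part here. Nmrk2, a nicotinamide riboside kinase gene, was higher in the SRFHKO hearts by 3.12 on the log2 scale at day 8 (limma adjusted p = 0.00236), by 4.32 at day 25 without PE (6.1e-06) and by 2.92 with PE (0.000428). The day 8 call passed in 13 of 15 alternative settings and the others in all 15. In control hearts Nmrk2 was also higher with PE than without it, by 1.94, which passed only in some alternative settings. Nmrk2 is therefore not a measure of the deletion alone.

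The mean level of the marker genes was lower in SRFHKO than in control hearts in each comparison, although at day 8 the difference was small without 1 of the 2 control hearts, and few single genes passed the test. Their mean log2 level was 6.99 ± 0.13 in 4 SRFHKO hearts and 7.39 ± 0.53 in 2 control hearts at day 8 (SD). At day 25 without PE it was 6.97 ± 0.34 in SRFHKO and 7.30 ± 0.15 in control hearts, and with PE it was 6.91 ± 0.14 in SRFHKO and 7.28 ± 0.15 in control hearts (SD, n = 3 each). In RNA of whole ventricles, fewer macrophages and less RNA per macrophage cannot be told apart. For these markers the SRFHKO and control means overlapped at both times without PE and did not overlap with PE.

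**Figure D1:**
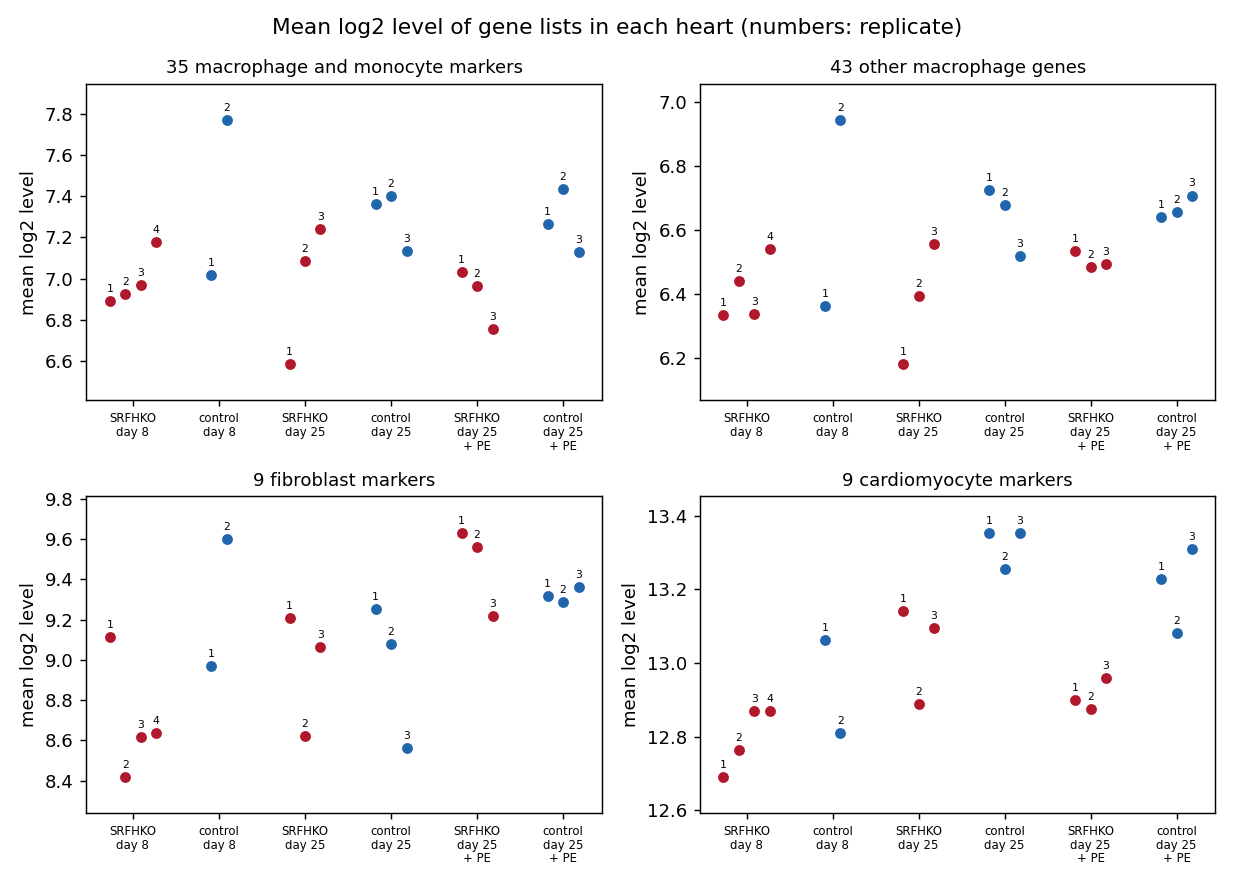
Mean log2 level of 4 gene lists (y axis) in each heart, by group (x axis), with red points for SRFHKO, blue points for control and the replicate number above each point. Among the 35 markers, all 3 SRFHKO hearts with PE lay below all 3 control hearts with PE, and control replicate 2 of day 8 was the highest heart.

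At day 8, 0 of the 35 markers passed the test between SRFHKO and control hearts (limma, Benjamini-Hochberg over all genes, threshold 0.05), and 0.0634% of all genes did. Of the markers, 30 of 35 had a difference below 0, against 6524 of 12616 genes, with a median of -0.37 against -0.01 over all genes. The unadjusted p was under 0.05 and the level lower in SRFHKO for 8 markers, against 4.84% of all genes. Csf1r and Ccl9 were the 2 markers lower in every SRFHKO heart than in every control heart, a pattern held by 9.67% of all genes. Without control replicate 2 the median of the markers was -0.07 and 22 of 35 lay below 0. Without control replicate 1 the median was -0.55. Each of these fits leaves 1 control heart at day 8, so no marker calls are given for them.

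At day 25 without PE, 0 markers passed, against 2.48% of all genes, although 31 of 35 lay below 0 with a median of -0.25, against -0.05 over all genes. Here 6 markers had an unadjusted p under 0.05 in the lower direction, against 10.2% of all genes. In 6 markers, Csf1r, Cx3cr1, Ccr2, Cybb, Ccl9 and Wfdc17, every SRFHKO heart lay below every control heart, which was so for 12.6% of all genes. Without SRFHKO replicate 1 the median of the markers was -0.16 and 23 of 35 lay below 0.

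At day 25 with PE, 2 of 35 markers passed the test, Wfdc17 and Ccl9, both lower in SRFHKO hearts. Over all genes 1.66% passed in either direction and 0.943% passed as lower. Without SRFHKO replicate 2 no marker passed, and 1 passed without SRFHKO replicate 1, control replicate 1 or control replicate 2. The median over the markers was -0.28, against -0.00 over all genes, and 30 of 35 lay below 0. The unadjusted p was under 0.05 and the level lower for 9 markers, against 7.58% of all genes. In 13 markers the SRFHKO hearts lay wholly below the control hearts, against 10.5% of all genes. These 13 were the C1q chains, Ptprc, Itgb2, Cx3cr1, Fcgr3, Fcer1g, Lyz1, Ms4a6d, Ccl6, Ccl9 and Wfdc17.

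**Figure D2:**
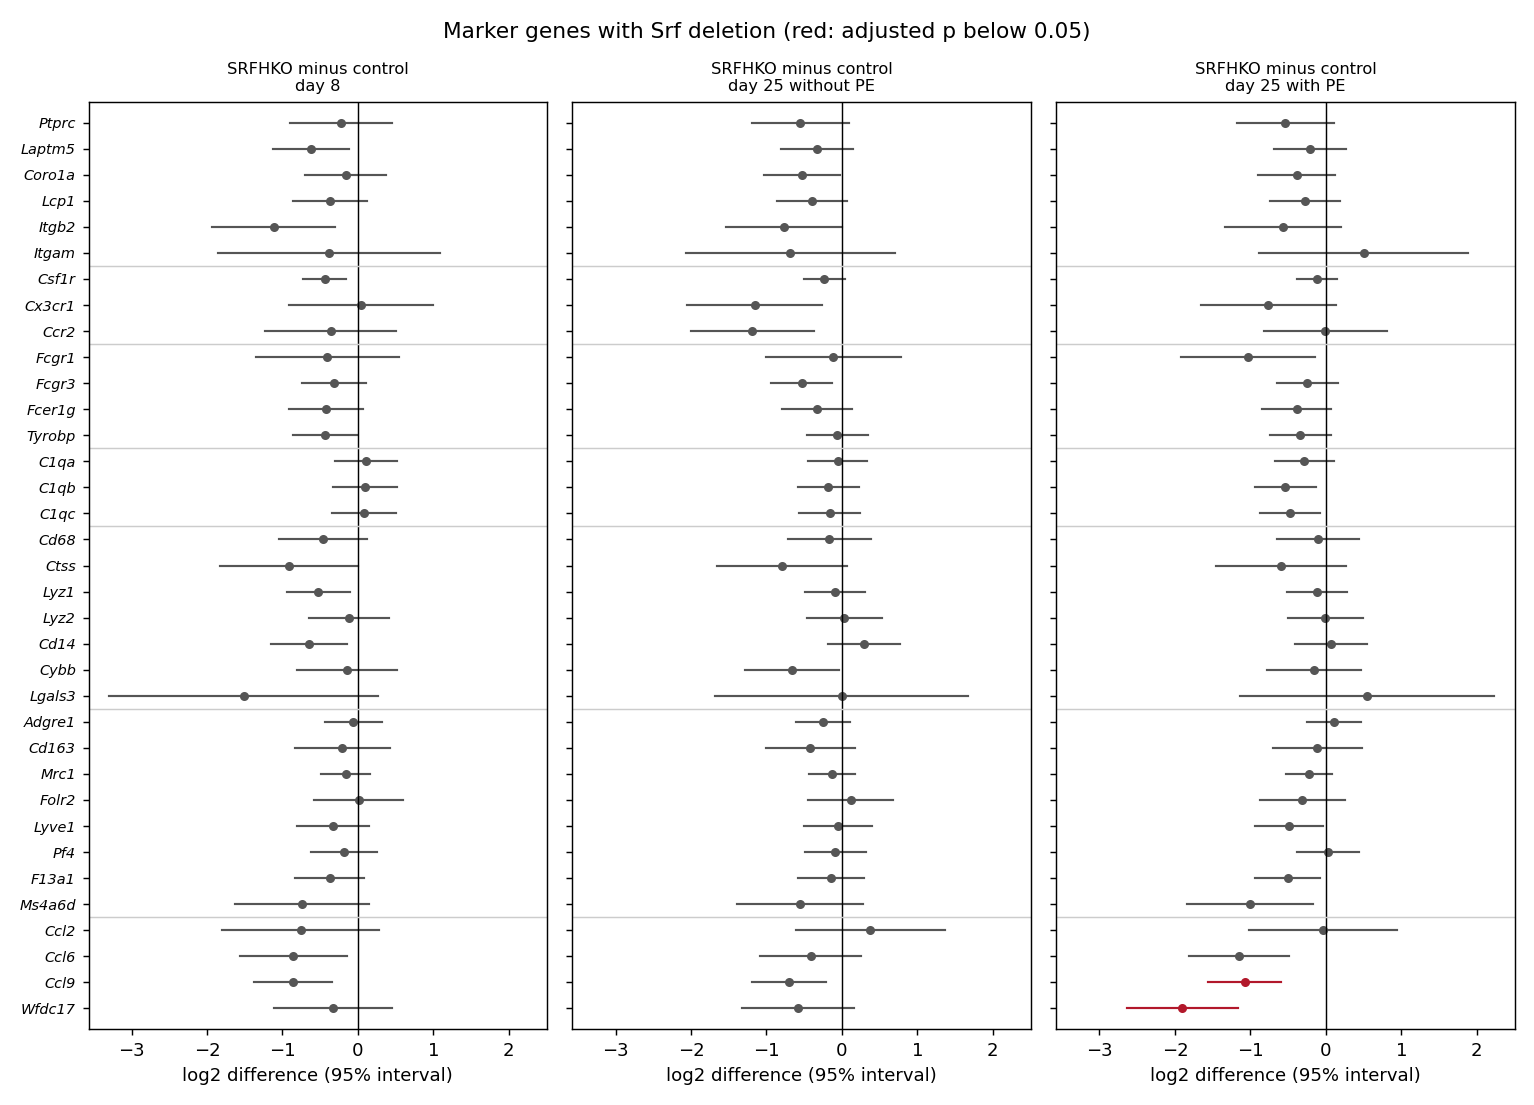
Log2 difference, SRFHKO minus control (x axis), with its 95% interval for each of 35 marker genes (y axis, grouped by role) at day 8 and, without PE and then with PE, at day 25. Most points lie left of 0 in each panel, and only Wfdc17 and Ccl9 with PE, in red, passed the adjusted test.

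By median, the 4 secreted proteins differed most of all roles with PE, at -1.11, and 2 of them passed. Wfdc17, a secreted WAP-domain protein known from activated macrophages and microglia, was lower in SRFHKO than in control hearts with PE. Its scaled signal was 55.1, 18.7 and 13.2 in SRFHKO hearts with PE, against 87.5, 107.8 and 93.8 in control hearts with PE. All SRFHKO hearts were below all controls, and replicate 1 lay well above the other two SRFHKO hearts. The difference was -1.90 ± 0.35 (SE, limma adjusted p = 0.0100), or 3.74-fold lower. Without PE at day 25 the signal was 42.5, 53.8 and 74.0 in SRFHKO hearts, against 86.7, 77.8 and 87.0 in control hearts. These groups did not overlap either, but the difference of -0.58 ± 0.35 did not pass (adjusted p = 0.397). At day 8 it was 62.8, 43.3, 34.0 and 31.5 in SRFHKO hearts, against 52.5 and 53.1 in control hearts, with overlap.

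Ccl9, a chemokine of mouse myeloid cells that acts through Ccr1, was also lower in SRFHKO than in control hearts with PE. Its signal was 107.0, 98.5 and 118.2 in SRFHKO hearts with PE, against 242.8, 244.4 and 201.9 in control hearts with PE. The groups were far apart and each was tight. The difference was -1.07 ± 0.23 (SE, limma adjusted p = 0.0229), or 2.11-fold lower. Without PE at day 25 the SRFHKO hearts had 118.0, 119.4 and 167.0, against 195.1, 246.2 and 215.6 in control hearts, again without overlap. That difference was -0.70 ± 0.23 and did not pass (adjusted p = 0.110). At day 8 the SRFHKO hearts had 117.4, 118.5, 95.1 and 105.0, against 125.2 and 315.9 in control hearts, a difference of -0.86 ± 0.25 that did not pass (adjusted p = 0.274). A second Ccl9 probe set gave -0.57 ± 0.30 with PE and did not pass (adjusted p = 0.458 over all probe sets).

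Ccl6, a related myeloid chemokine, missed the threshold with PE. It had 86.0, 127.1 and 122.5 in SRFHKO hearts with PE, against 279.9, 352.2 and 153.4 in control hearts with PE. The groups did not overlap, although control replicate 3 lay close to the SRFHKO hearts. The difference was -1.15 ± 0.32 (limma adjusted p = 0.0751). Without control replicate 3 it was -1.49 and passed (adjusted p = 0.0398). Its second probe set, read over all probe sets and not only 1 per gene, passed as lower, at -1.20 ± 0.28 with PE (limma adjusted p = 0.0458) and at -1.48 ± 0.30 at day 8 (adjusted p = 0.0497). Without PE at day 25 the signal was 121.3, 145.1 and 222.0 in SRFHKO hearts, against 191.0, 210.4 and 233.2 in control hearts, which overlapped. Ccl2, the main chemokine that attracts monocytes through Ccr2, differed by -0.04 ± 0.47 with PE and by 0.38 ± 0.47 without PE at day 25, and neither passed.

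The calls with PE rested on few hearts. Wfdc17 did not pass without SRFHKO replicate 2 (adjusted p = 0.0603), or with the spread taken from the compared groups only (0.0699). With 1 heart left out at a time, Ccl9 did not pass for 5 of the 6 hearts compared (adjusted p between 0.0550 and 0.106). It did not pass either with array brightness as a covariate (0.0570), or without an intensity trend (0.0689). Its difference kept a value between -1.21 and -1.01 throughout.

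**Figure D3:**
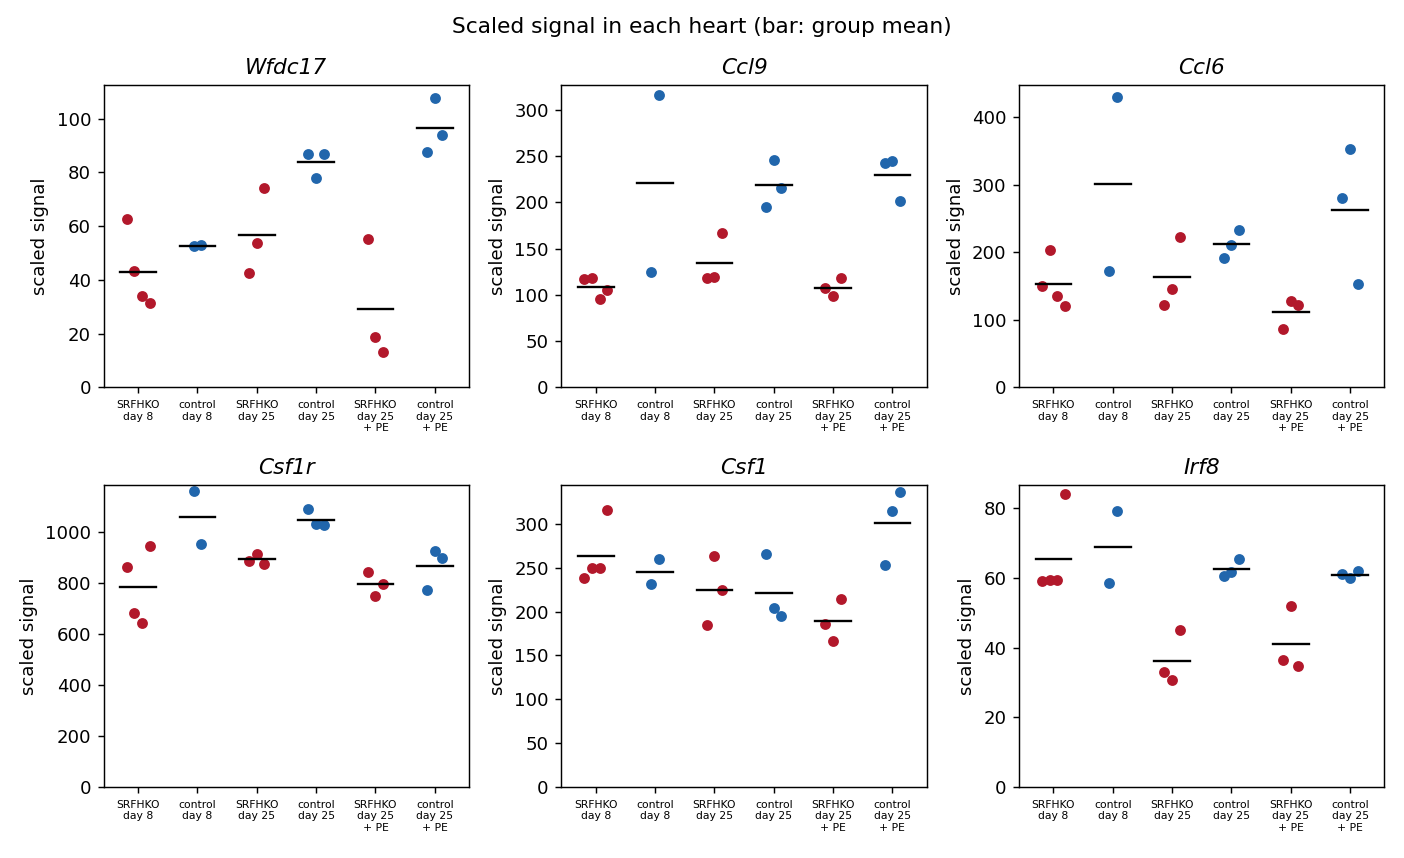
Scaled signal (y axis, linear from 0) in each heart for Wfdc17, Ccl9, Ccl6, Csf1r, Csf1 and Irf8 by group (x axis), with red points for SRFHKO, blue points for control and a bar at the group mean. With PE at day 25 every SRFHKO heart lies below every control heart for Wfdc17, Ccl9, Ccl6, Csf1 and Irf8, while Csf1r overlaps.

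Ccl9, Ccl6 and Wfdc17 lie near each other on chromosome 11. In the RefSeq gene order, looked up after these values were seen, the sequence runs Taf15, Heatr9, Ccl5, Ccl9, Ccl6, Ccl3, Ccl4, Wfdc17, Wfdc18, Wfdc21, Heatr6. Ccl3 and Wfdc18 were on the array but not among the genes tested, and Heatr9 was not on the array. Between Ccl9 and Wfdc17 only Ccl6 and Ccl4 were therefore tested. Of the other tested genes between and around Ccl9, Ccl6 and Wfdc17, none passed in the deletion comparison with PE. Ccl5 differed by 0.22 ± 0.75, Ccl4 by 0.40 ± 0.44, Wfdc21 by -0.41 ± 0.46 and Heatr6 by -0.12 ± 0.21. Taf15, a gene of an RNA-binding protein, differed by -1.12 ± 0.46 (adjusted p = 0.254). Other neighbouring members in the order are Lyz2 with Lyz1 on chromosome 10 and C1qb, C1qc and C1qa on chromosome 4.

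The promoters of these 3 genes are shown because they are the markers with the largest differences with PE and lie close together. Each window runs from 250 bases before the annotated start to 50 after it, 5′ to 3′ on the gene's strand, from RefSeq on GRCm38.p6. Capitals mark a match to GAGGAAG or its reverse complement CTTCCTC, a core bound by PU.1. The windows are chr11:83578587-83578886 on the minus strand for Ccl9, chr11:83593038-83593337 on the minus strand for Ccl6, and chr11:83703806-83704105 on the plus strand for Wfdc17.
Ccl9: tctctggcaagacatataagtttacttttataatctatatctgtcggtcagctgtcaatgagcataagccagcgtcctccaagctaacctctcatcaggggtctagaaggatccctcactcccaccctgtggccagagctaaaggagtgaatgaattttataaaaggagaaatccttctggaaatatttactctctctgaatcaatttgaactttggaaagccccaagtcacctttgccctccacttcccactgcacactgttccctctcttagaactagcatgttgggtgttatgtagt
Ccl6: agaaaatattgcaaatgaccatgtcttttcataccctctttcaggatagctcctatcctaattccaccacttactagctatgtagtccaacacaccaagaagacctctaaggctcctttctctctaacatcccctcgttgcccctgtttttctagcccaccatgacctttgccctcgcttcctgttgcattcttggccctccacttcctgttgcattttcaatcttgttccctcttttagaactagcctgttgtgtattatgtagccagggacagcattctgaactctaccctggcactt
Wfdc17: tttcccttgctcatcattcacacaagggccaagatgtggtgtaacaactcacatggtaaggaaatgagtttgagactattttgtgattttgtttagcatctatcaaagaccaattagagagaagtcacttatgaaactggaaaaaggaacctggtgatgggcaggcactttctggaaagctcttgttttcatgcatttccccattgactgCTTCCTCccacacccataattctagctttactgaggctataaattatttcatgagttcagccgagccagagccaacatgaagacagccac
The Wfdc17 window held 1 match, which begins 40 bases before the start, and the Ccl9 and Ccl6 windows held none of these letters. The table had promoters for 26 of the 35 markers, in 32 windows. The core was in 12 of these windows (37.5%), which belong to C1qc, Ctss, F13a1, Fcgr1, Fcgr3, Itgam, Laptm5, Mrc1, Pf4 and Wfdc17, and in 13.6% of all 32851 windows of the table. The CArG box, on both strands, was in 0 of the 32 windows and in 1.63% of all windows. A match is a run of letters and not a measured site.

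Among the receptors, Csf1r, the receptor for CSF1 and IL-34 on which macrophage survival depends, was lower in the SRFHKO hearts at both times without PE by small amounts that did not pass. At day 8 its signal was 864.9, 683.0, 642.8 and 946.7 in SRFHKO hearts, against 1161 and 955.4 in control hearts. The highest SRFHKO heart was just below the lowest control heart, and the difference was -0.44 ± 0.14 (SE, limma adjusted p = 0.318). At day 25 without PE it was 889.3, 914.4 and 877.1 in SRFHKO hearts, against 1092, 1031 and 1027 in control hearts. The groups did not overlap, at -0.23 ± 0.13 (adjusted p = 0.346). With PE it was 845.3, 748.3 and 797.4 in SRFHKO hearts, against 774.3, 925.8 and 899.1 in control hearts, which overlapped.

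Ccr2, the receptor that brings blood monocytes into tissue, had 11.0, 16.9 and 22.6 in SRFHKO hearts at day 25 without PE, against 38.7, 65.0 and 24.3 in control hearts. All SRFHKO hearts were lower, with replicate 3 close to the lowest control. The difference of -1.19 ± 0.39 did not pass (limma adjusted p = 0.106). With PE the signal was 61.6, 25.8 and 29.9 in SRFHKO hearts, against 36.6, 57.9 and 22.6 in control hearts. These overlapped, at -0.00 ± 0.39. At day 8 it ranged from 29.8 to 55.1 in SRFHKO hearts and was 48.1 and 60.7 in control hearts.

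Cx3cr1, the fractalkine receptor of patrolling monocytes and resident macrophages, had 6.03, 17.7 and 26.1 in SRFHKO hearts at day 25 without PE, against 37.3, 41.3 and 26.9 in control hearts. It was lower in every SRFHKO heart, at -1.16 ± 0.43 (limma adjusted p = 0.156). With PE it was 5.98, 13.6 and 12.3 in SRFHKO hearts, against 24.7, 14.8 and 17.4 in control hearts, at -0.76 ± 0.43 (adjusted p = 0.436). Its signal lay below the filter limit of 9.94 in 2 SRFHKO hearts, replicate 1 of each day 25 group. At day 8 it differed by 0.04 ± 0.45.

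The 3 chains of C1q, the recognition molecule that starts the classical complement pathway and that macrophages make in quantity, gave values close to each other. With PE every chain was lower in every SRFHKO heart than in every control heart, but none passed the test. C1qb had 231.2, 213.0 and 215.6 in SRFHKO hearts with PE, against 312.4, 332.7 and 313.6 in control hearts with PE. The 2 groups were tight, at -0.54 ± 0.19 (limma adjusted p = 0.175). C1qc had 286.3, 250.1 and 234.7 in SRFHKO hearts, against 357.2, 364.2 and 347.2 in control hearts, at -0.47 ± 0.19 (adjusted p = 0.242). C1qa had 384.9, 334.8 and 325.0 in SRFHKO hearts, against 402.0, 448.0 and 421.8 in control hearts, at -0.28 ± 0.19 (adjusted p = 0.516). Without PE at day 25 the chains differed by -0.06, -0.18 and -0.16 for C1qa, C1qb and C1qc, and at day 8 by 0.11, 0.09 and 0.08. SRFHKO replicate 4 of day 8 was the highest of all 18 hearts for each chain, at 633.3 for C1qa, 398.3 for C1qb and 508.5 for C1qc.

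The Fc receptors and their signalling adaptors lay below 0 in every deletion comparison, and none passed. Fcgr1, the high-affinity receptor for IgG, had 37.0, 35.5 and 19.4 in SRFHKO hearts with PE, against 65.2, 34.1 and 108.4 in control hearts with PE. Control replicate 3 was by far the highest and the groups overlapped, at -1.03 ± 0.42 (limma adjusted p = 0.252). Fcgr3, a low-affinity IgG receptor, differed by -0.53 ± 0.19 at day 25 without PE (adjusted p = 0.143) and by -0.24 ± 0.19 with PE. Fcer1g, the common gamma chain of Fc receptors, differed by -0.42 at day 8, by -0.33 without PE at day 25 and by -0.39 with PE. For Tyrobp, the adaptor also called DAP12, these values were -0.44, -0.06 and -0.34.

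Leukocyte surface and actin genes also lay below 0 in all comparisons by genotype except Itgam with PE. At day 25 without PE the differences ran from -0.77 for Itgb2, the beta chain of leukocyte integrins, to -0.33 for Laptm5, a lysosomal membrane protein of blood cells, with a median of -0.54. Ptprc, the leukocyte phosphatase CD45, had 104.1, 76.3 and 111.9 in SRFHKO hearts with PE, against 141.7, 152.0 and 128.7 in control hearts with PE. These did not overlap, at -0.54 ± 0.31 (limma adjusted p = 0.446). Itgb2 had 61.1, 49.5 and 55.4 in SRFHKO hearts with PE, against 70.2, 105.7 and 76.3 in control hearts with PE, at -0.57 ± 0.37 (adjusted p = 0.512). The actin regulators Coro1a and Lcp1 differed by -0.39 ± 0.24 and -0.27 ± 0.22 with PE. Itgam, the alpha chain of one of these integrins, lay below the filter limit on 3 arrays, so its differences are imprecise.

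All 7 lysosomal, bactericidal and pattern recognition genes lay below 0 at day 8, with a median of -0.53, and 5 of 7 did in each comparison by genotype at day 25. At day 8 Lgals3 differed by -1.51 ± 0.85 and Ctss by -0.91 ± 0.44, and neither passed. The 2 control hearts of day 8 were far apart. Lgals3 had 45.3 and 1013 in them, against 43.4 to 102.0 in SRFHKO hearts. Cd68 had 72.1 and 190.8, against 74.7 to 109.9 in SRFHKO hearts. In all 7 genes at least 1 SRFHKO heart lay above the lower control heart at day 8. Ctss, the protease cathepsin S, had 91.9, 399.4 and 305.5 in SRFHKO hearts at day 25 without PE, against 444.5, 370.2 and 358.8 in control hearts. SRFHKO replicate 1 was low and replicate 2 was within the controls, at -0.79 ± 0.41 (limma adjusted p = 0.318). Cybb, the catalytic subunit of the phagocyte oxidase, had 62.4, 114.1 and 116.4 in SRFHKO hearts at day 25 without PE, against 144.9, 177.1 and 131.3 in control hearts, without overlap, at -0.66 ± 0.30 (adjusted p = 0.242). Cd68, a lysosomal glycoprotein, differed by -0.17 ± 0.26 without PE and -0.10 ± 0.26 with PE. Cd14, the co-receptor for bacterial lipopolysaccharide, differed by 0.30 ± 0.23 without PE and 0.07 ± 0.23 with PE. The lysozyme genes Lyz1 and Lyz2 are near-identical, and Lyz1 was read from a probe set of the _x_at kind, which can cross-hybridise, so the 2 cannot be separated with certainty. They differed by -0.09 and 0.03 without PE and by -0.12 and -0.01 with PE. Lgals3, galectin-3, had the largest standard error of the markers, with 352.6, 270.8 and 48.1 in SRFHKO hearts with PE, against 149.0, 109.2 and 90.7 in control hearts with PE.

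None of the 8 markers of resident and scavenging macrophages passed in any comparison. Without PE at day 25 their median was -0.14. Mrc1, the mannose receptor, differed by -0.13 ± 0.15, Lyve1, a hyaluronan receptor, by -0.05 ± 0.21, Pf4, a chemokine also stored in platelets, by -0.08 ± 0.20, and Folr2, a folate receptor, by 0.12 ± 0.27. Adgre1, the F4/80 antigen, differed by -0.25 ± 0.17, and Cd163, the scavenger receptor for haemoglobin bound to haptoglobin, by -0.42 ± 0.28. With PE, F13a1, the A subunit of coagulation factor XIII, had 417.8, 364.2 and 381.9 in SRFHKO hearts, against 410.0, 705.7 and 576.6 in control hearts. Control replicate 1 fell within the SRFHKO range, at -0.51 ± 0.21 (limma adjusted p = 0.250). Lyve1 had 136.5, 157.6 and 111.5 in SRFHKO hearts with PE, against 139.1, 248.3 and 195.1 in control hearts with PE, at -0.49 ± 0.21 (adjusted p = 0.287). Ms4a6d, a membrane protein of the MS4A family, had 48.8, 70.2 and 39.5 in SRFHKO hearts with PE, against 107.3, 82.5 and 129.9 in control hearts with PE, without overlap, with a 95% interval of the difference from -1.84 to -0.16 (adjusted p = 0.234).

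**Figure D4:**
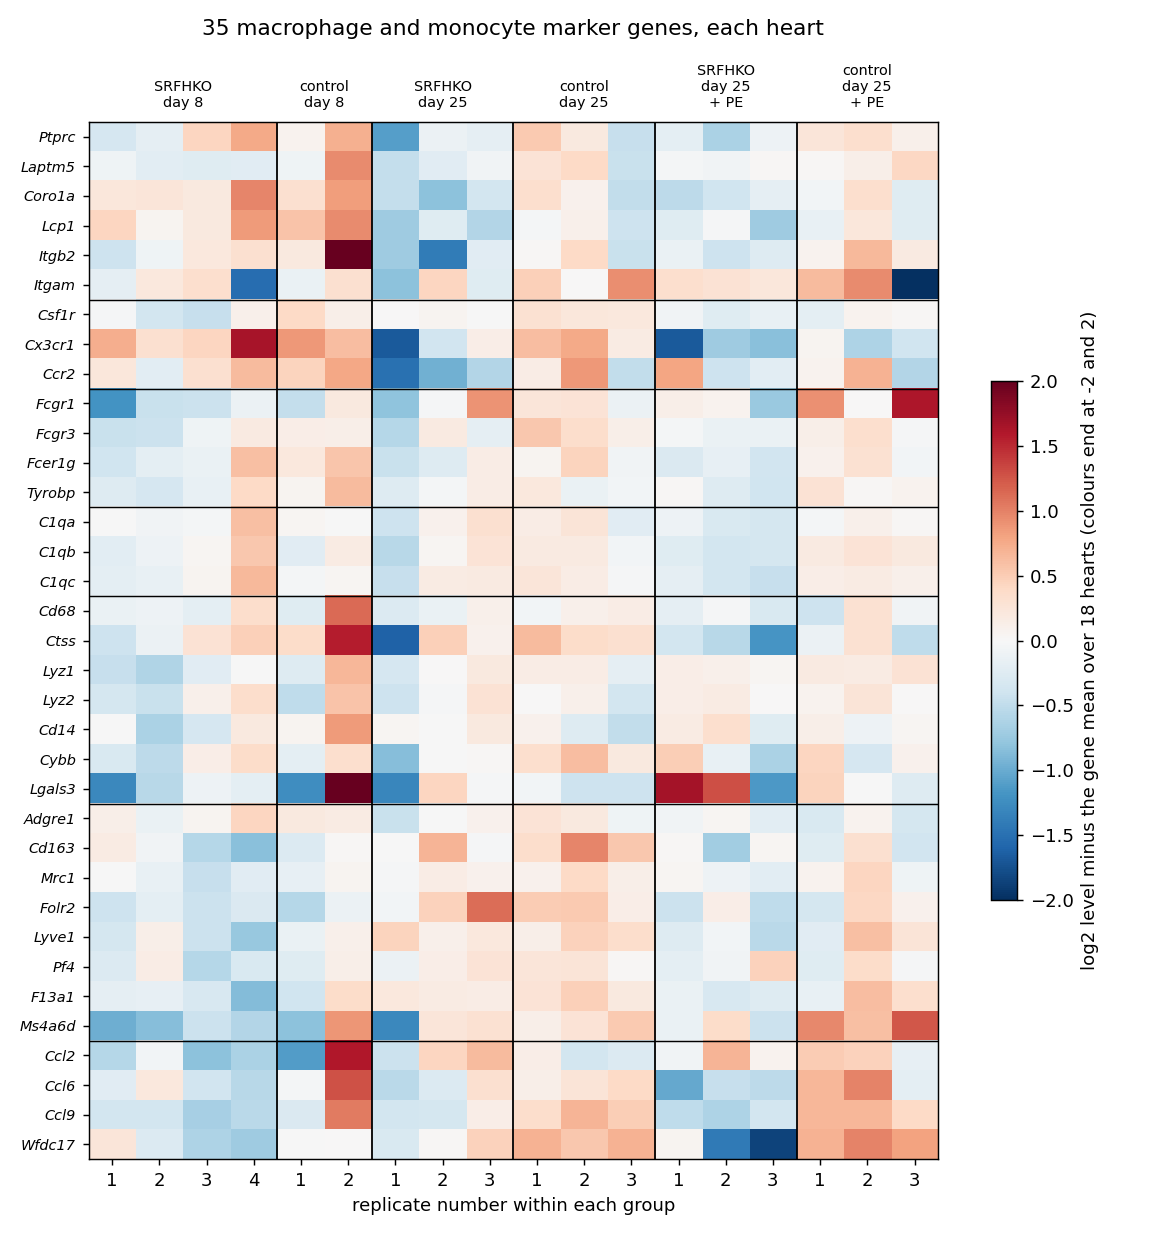
Log2 level of 35 marker genes (rows, grouped by role) minus the gene's mean over 18 hearts, for each heart (columns, grouped by genotype, day and PE); red is above and blue is below the mean, and colours end at -2 and 2. Control replicate 2 of day 8 is the highest of 18 hearts for 13 genes, and SRFHKO replicate 1 of day 25 is the lowest for 14 genes.

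Hearts of the same group differed in many markers. Control replicate 2 of day 8 was higher than control replicate 1 in 30 of 35 markers, by a median of 0.50 on the log2 scale and by 2-fold or more in 10 of them. Lgals3 was 1013 in control replicate 2 and 45.3 in control replicate 1. The fibroblast markers and Fn1, the fibronectin gene, were also higher there: their mean log2 level was 9.60 against 8.97, and Fn1 had 1037 against 194. At day 25 without PE, SRFHKO replicate 1 was the lowest of its group in 28 of 35 markers. With PE, control replicate 2 was the highest of its group in 25 of 35, and at day 8 SRFHKO replicate 4 was the highest of its group in 21 of 35.

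No marker passed the test between PE and no PE in either genotype. In SRFHKO hearts 0 of 35 passed, against 0.262% of all genes, with a median of -0.07 over the markers. At an unadjusted p under 0.05, 1 marker was higher, against 5.61% of all genes, and 3 were lower, against 5.24%. In control hearts 0 of 35 passed, against 0.0396% of all genes, with a median of 0.01. At an unadjusted p under 0.05, 0 were higher, against 4.37% of all genes, and 2 were lower, against 6.14%. These comparisons use the same day 25 hearts as the comparisons by genotype.

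Within SRFHKO hearts, Ccr2 was the 1 marker higher in every heart with PE than in every heart without it, against 8.65% of all genes, at 1.07 ± 0.39 (limma adjusted p = 0.278). Csf1r, Lyve1 and F13a1 were the 3 that were lower without overlap, against 8.39% of all genes. Wfdc17 had 55.1, 18.7 and 13.2 with PE, against 42.5, 53.8 and 74.0 without PE in SRFHKO hearts. Replicate 1 with PE lay within the hearts without PE, at -1.13 ± 0.35 (adjusted p = 0.191). Without that replicate the difference was -1.69 and passed (adjusted p = 0.00504). Folr2 differed by -0.77 ± 0.27 (adjusted p = 0.254).

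Within control hearts, Lyz1, Ms4a6d and Wfdc17 were higher in every heart with PE, against 5.93% of all genes. Csf1r, Cx3cr1, Ctss and Cd163 were lower in every heart with PE, against 8.68% of all genes. Cd163 had 70.3, 104.7 and 64.0 with PE, against 107.5, 166.9 and 123.0 without PE in control hearts, at -0.73 ± 0.28 (limma adjusted p = 0.363). Wfdc17 differed by 0.19 ± 0.35.

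**Figure D5:**
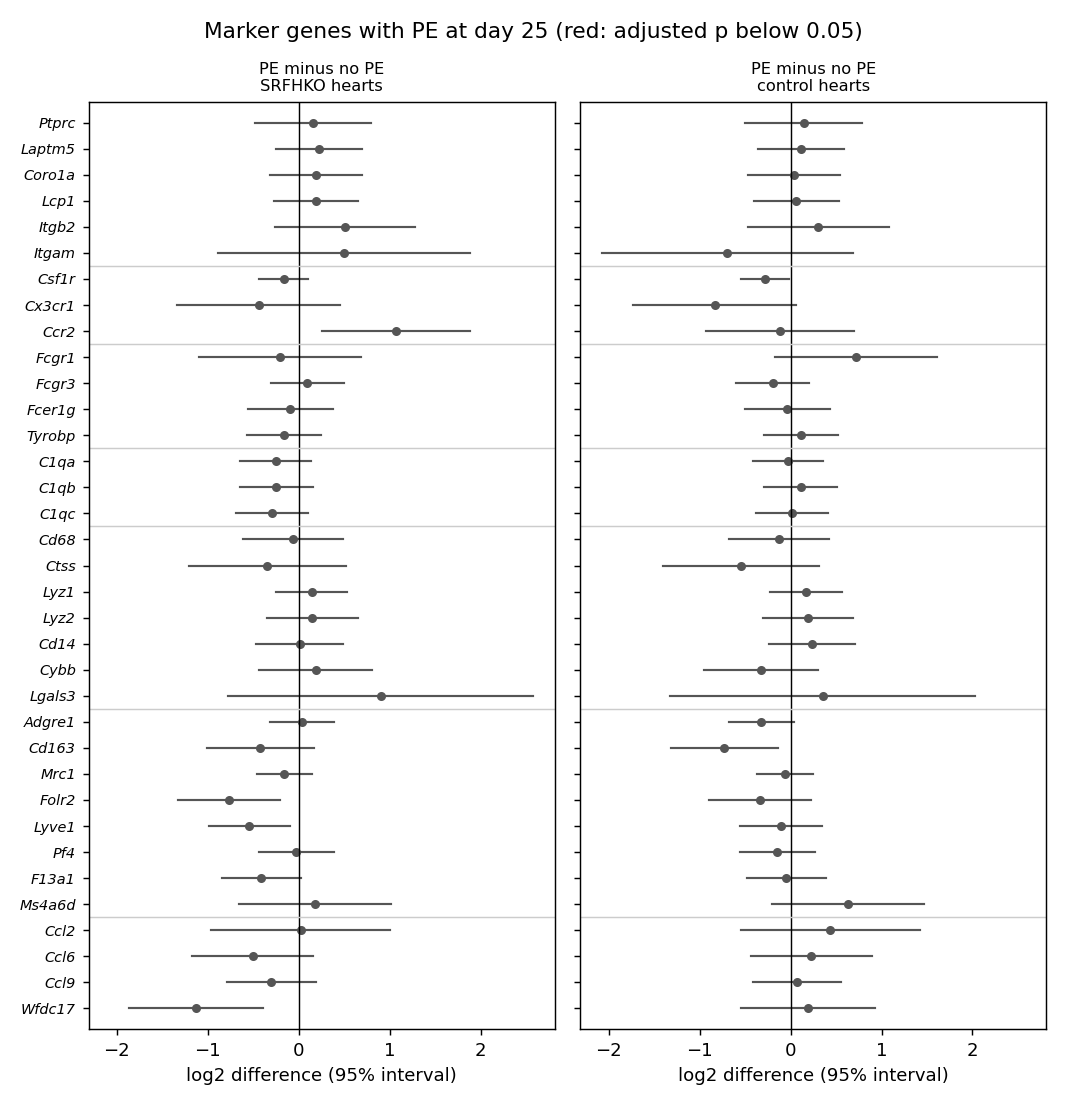
Log2 difference, PE minus no PE at day 25 (x axis), with its 95% interval for each of 35 marker genes (y axis, grouped by role) in SRFHKO hearts and in control hearts. The points lie on both sides of 0 in each panel and none is red.

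The tests of whether the deletion effect differed gave no calls among the markers. For the interaction of PE and genotype 0 of 35 passed, against 0.0238% of all genes, and the unadjusted p was under 0.05 for 1 marker upward, against 4.37% of all genes, and 1 downward, against 3.09%. These were Ccr2 at 1.18 ± 0.55 and Wfdc17 at -1.32 ± 0.50 (limma adjusted p = 0.597 for Wfdc17 and 0.656 for Ccr2). The lower Wfdc17 with PE is therefore not shown to differ from the comparison without PE. For the interaction of day and genotype without PE 0 of 35 passed, against 0.0% of all genes, and Cd14 alone had an unadjusted p under 0.05, at 0.95 ± 0.33 (adjusted p = 0.274), against 5.29% of all genes in that direction. Day and any separate run of arrays at the 2 times cannot be told apart.

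Among 12 tested genes that control macrophage growth and identity, 2 were called by genotype at day 25 without PE, against the 2.48% of all genes above, and 1 with PE, against 1.66%. In this list 10 of 12 lay above 0 without PE, with a median of 0.11, and 11 of 12 lay below 0 with PE, with a median of -0.22. Csf1, the growth factor for Csf1r, was lower in SRFHKO hearts with PE, at 185.8, 166.9 and 214.0, against 252.6, 315.0 and 336.0 in control hearts with PE. The groups did not overlap, at -0.66 ± 0.16 (limma adjusted p = 0.0449), and the call was kept in 7 of 15 alternative settings. Without PE at day 25 Csf1 differed by 0.02 ± 0.16. Irf8, a transcription factor needed for monocyte development, was lower in SRFHKO hearts at day 25 without PE, at 32.9, 30.6 and 45.0, against 60.5, 61.6 and 65.3 in control hearts. The difference was -0.77 ± 0.20 (adjusted p = 0.0467) and passed in 4 of 15 alternative settings. With PE it was -0.57 ± 0.20 without overlap (adjusted p = 0.170).

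Irf5, a transcription factor of inflammatory macrophages, rose in SRFHKO hearts at day 25 without PE, at 34.5, 29.3 and 40.4, against 18.2, 9.23 and 13.3 in control hearts (1.27 ± 0.29, limma adjusted p = 0.0292). For Irf5, 1 control heart lay below the filter limit, so the fold is given as at least 2.36-fold higher. The call passed in 10 of 15 alternative settings. With PE Irf5 differed by -0.36 ± 0.29.

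Of 12 further genes of chemokines and their receptors, 1 was called by genotype with PE, against 1.66% of all genes. The same gene was called for PE in SRFHKO hearts, against 0.262% of all genes. Ccrl2, a receptor that binds chemerin without signalling, was lower in SRFHKO hearts with PE, at 87.5, 68.0 and 77.1, against 175.4, 139.7 and 150.3 in control hearts with PE. The difference was -0.98 ± 0.14 (limma adjusted p = 0.00100), and it passed in all 15 alternative settings. It was also lower with PE than without PE in SRFHKO hearts, at -0.67 ± 0.14 (adjusted p = 0.0484), a call kept in 5 of 15 settings. Ccrl2 differed by -0.30 ± 0.14 at day 25 without PE (adjusted p = 0.247).

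Among 5 tested markers of inflammatory monocytes, Plac8 was lower in SRFHKO hearts with PE, at 13.4, 17.7 and 14.0, against 72.5, 34.2 and 88.4 in control hearts with PE. The difference was -1.88 ± 0.36 (limma adjusted p = 0.0120) and passed in 12 of 15 alternative settings. None of the other genes of this list had an unadjusted p under 0.05 with PE. Its median was -0.12 with 2 of 5 above 0, and without PE at day 25 it was 0.13 with 3 of 5 above 0. Of 43 other macrophage genes tested, 0 passed in any comparison. Their medians by genotype were -0.22 at day 8, -0.23 without PE at day 25 and -0.22 with PE. At day 8 their mean log2 level was 6.33 to 6.54 in SRFHKO hearts, 6.36 in control replicate 1 and 6.94 in control replicate 2. Only control replicate 2 thus lay above the SRFHKO hearts. At an unadjusted p under 0.05, 9 of 43 were lower and 0 higher in SRFHKO hearts at day 8, against 4.84% and 4.19% of all genes. At day 25 without PE 9 were lower and 3 higher, against 10.2% and 8.2%. With PE 1 was lower and 1 higher, against 7.58% and 7.09%, so that both fell short of the share over all genes. Yet 30 of 43 lay below 0 with PE, against 6370 of 12616 genes. Their mean log2 level with PE was 6.48 to 6.53 in SRFHKO and 6.64 to 6.71 in control hearts, without overlap. Their summed signal overlapped.

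Other cell types were read from their own lists. Of the markers listed, 4 of 13 neutrophil, 3 of 11 T cell, 4 of 10 B cell, 3 of 8 NK cell, 3 of 7 mast cell, 3 of 8 dendritic cell and 5 of 8 platelet genes passed the filter on low signal, and 0 of those were called in any comparison; the rest were too dim or not named on the array. The mean log2 level of the 4 neutrophil genes overlapped with PE, at 3.88 to 4.60 in SRFHKO and 4.56 to 5.66 in control hearts. Their summed signal, which the brightest genes dominate, was 59 to 92 in SRFHKO hearts with PE and 142 to 288 in control hearts with PE. That of the 5 lymphatic endothelial genes, a cell type that shares Lyve1, was 343 to 407 in SRFHKO hearts with PE and 318 to 419 in control hearts with PE. Reln of this list was lower in SRFHKO hearts with PE, at -0.89 ± 0.20 (limma adjusted p = 0.0320), and passed in 6 of 15 alternative settings, in none of those that left out 1 heart with PE. In the same list 2 of 5 genes lay above 0 with PE, against 6246 of 12616 genes, with a median of -0.04. The 8 endothelial markers all lay below 0 at day 25 without PE, with a median of -0.35, against -0.05 over all genes. In 5 of them the groups did not overlap, against 12.6% of all genes in the lower direction. Of the 8, 1 was called, Cldn5 (-0.81 ± 0.19, limma adjusted p = 0.0309), against 2.48% of all genes. This call was kept in 7 of 15 alternative settings. The summed signal of the 8 markers was 2052 to 2163 in SRFHKO and 2349 to 3029 in control hearts at day 25 without PE. With PE it was 2103 to 2706 in SRFHKO and 2352 to 2903 in control hearts, and at day 8 it was 2562 to 2902 in SRFHKO and 2380 to 2487 in control hearts.

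Cardiomyocyte genes and some measures of array quality also differed by genotype. The summed signal of 9 of 9 cardiomyocyte markers was 71384 to 85887 in SRFHKO and 91683 to 99542 in control hearts at day 25 without PE, and 71001 to 75287 in SRFHKO and 81178 to 95979 in control hearts with PE. At day 8 it was 62160 to 72566 in SRFHKO and 67315 to 80677 in control hearts. The 9 fibroblast markers summed to 5711 to 8184 in SRFHKO and 8494 to 13419 in control hearts at day 8. Their mean log2 level overlapped there, at 8.42 to 9.11 in SRFHKO and 8.97 to 9.60 in control hearts. At day 25 without PE they summed to 5602 to 8558 in SRFHKO and 5887 to 8986 in control hearts. With PE they summed to 8318 to 12293 in SRFHKO and 8885 to 9464 in control hearts. The trimmed mean before scaling was 71.2 to 83.5 in SRFHKO and 46.6 to 68.5 in control hearts at day 25 without PE, and 75.9 to 85.4 in SRFHKO and 52.5 to 75.3 in control hearts with PE. The ratio of 3′ to 5′ signal of Gapdh, a sign of RNA integrity, was 0.850 to 0.936 in SRFHKO and 1.01 to 1.02 in control hearts at day 8, 0.820 to 0.835 in SRFHKO and 0.868 to 0.945 in control hearts at day 25 without PE, and 0.824 to 0.863 in SRFHKO and 0.846 to 0.900 in control hearts with PE. The same ratio of Actb overlapped between genotypes in each comparison, at 1.52 to 2.12 in SRFHKO and 2.07 to 2.52 in control hearts at day 8, 1.83 to 2.02 in SRFHKO and 2.00 to 2.03 in control hearts at day 25 without PE, and 1.87 to 2.31 in SRFHKO and 1.75 to 2.02 in control hearts with PE. The part of these lists and measures in the marker differences was not tested beyond the fit with brightness as a covariate. In that fit the median of the markers was -0.44 at day 25 without PE and -0.40 with PE, and Wfdc17 alone passed.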

How the data were processed

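Affymetrix arrays measured RNA of 18 mouse hearts in 6 groups, which were taken from the sample titles. Per the labels' protocols, RNA was extracted with Trizol and biotinylated cRNA was hybridised. The deposited values are intensity on a linear scale for 45101 probe sets per array, made by the authors with GCOS, the Affymetrix scanner software, per the submitters' processing notes. The sources used here state neither its version nor any scaling or filter. The number of arrays limits the precision.

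Arrays were brought to one common 2% trimmed mean, and log2 of the deposited intensity after scaling, plus a pseudocount of 2, was used, which understates changes of dim genes. The 64 control probe sets and those below the 40th percentile of mean level (log2 3.58, scaled signal 9.94) were left out, which left 27022 probe sets. Symbols were those of the platform annotation, renewed by gene ID from RefSeq (GRCm38.p6); of all probe sets, 34958 had 1 symbol, 932 several and 9160 none. Each gene was read from its brightest probe set, 12616 genes in all. The 35 markers had 61 probe sets; 55 passed the filter, and of the 20 not chosen, from 13 genes, 16 lay below 0 in the deletion comparison with PE.

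One limma model with a mean per group and an intensity trend was fitted over all arrays (R 4.3.3, limma 3.58.1, data.table, version 1.17.8), so that the 2 day 8 control hearts borrow the spread of all groups. Two-sided p-values were adjusted over all genes tested (Benjamini-Hochberg). Errors of differences are standard errors. The steps were tested on simulated data. The markers and the other lists were chosen with earlier results of these data known, so none is independent evidence. All markers are reported; of the other lists, genes past the threshold are named, and Tnnc1 and Postn of the cardiomyocyte and fibroblast lists also passed in some comparisons. The deviations of scaled levels in same-numbered hearts of compared groups correlated between -0.09 and 0.09. Hearts were treated as unpaired in the main fit. Alternatives are given in the closing section.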

Additional observations from a re-analysis of the deposited data

Results flagged for a closer look

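At day 8, SRFHKO replicate 4 lay far above the other 3 SRFHKO hearts for Coro1a, at a log2 level of 7.49, and for C1qa, at a log2 level of 9.31. Only the 4-heart group was examined this way, for 35 genes, and chance alone marks about 1 gene in 20. The smaller groups were not examined. This heart was the highest of its group in 21 of 35 markers and the highest of all 18 hearts in 8. Without it, the median difference of the markers at day 8 was -0.45 and 0 passed.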

How the results depend on the processing

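Quantile normalisation, a pseudocount of 10 or none, no filter on low values and avoiding _x_at probe sets changed no count of marker calls, and quantile normalisation moved the median of all genes by at most 0.05. With the replicate number as a block, 2 markers still passed in the deletion comparison with PE and 0 in every other comparison. After scaling, the deviations of same-numbered hearts of different groups correlated between -0.09 and 0.09. Before scaling, replicate 2 was the brightest and replicate 3 the dimmest array in every day 25 group. Whether same-numbered hearts shared a run was not tested. Under the block 5, 342, 242, 5, 39, 2 and 0 genes passed in the 7 comparisons. Without it 8, 313, 209, 5, 33, 3 and 0 passed. Among 243 marker results that did not pass, 101 changed sign under some setting.

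With brightness as a covariate 41 genes passed at day 25 without PE, 56 genes with PE, and 1 marker with PE. Without an intensity trend 3 genes passed at day 8, 161 at day 25 without PE, 75 with PE, 1 for PE in control hearts, 1 for PE in SRFHKO hearts, 0 for the PE interaction with genotype and 1 for the day interaction with genotype, with 1 marker in the deletion comparison with PE. With the compared groups only, 2 genes passed at day 8, 52 at day 25 without PE, 123 with PE, 9 for PE in control hearts and 2 for PE in SRFHKO hearts, with 1 marker in the deletion comparison with PE. Fewer arrays then set the spread.

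With 1 heart left out at a time, the genes passing ranged from 2 to 53 at day 8, 65 to 413 at day 25 without PE, 47 to 210 for the deletion with PE, 1 to 10 for PE in control hearts, 1 to 83 for PE in SRFHKO hearts, 0 to 6 for the PE interaction with genotype and 0 to 21 for the day interaction with genotype. The ranges at day 8 and for the day interaction with genotype include fits that leave 1 control heart at day 8. Those fits set the upper ends of both ranges, so these upper ends are not read as calls. With both day 8 control hearts kept, 2 to 10 genes passed at day 8 and 0 to 4 for that interaction, and 0 markers passed in either. The markers passing ranged from 0 to 2 for the deletion with PE and from 0 to 1 for PE in SRFHKO hearts. The median of the markers ranged from -0.55 to -0.069 at day 8 and, for the day interaction with genotype, from -0.23 to 0.28. The 0 to 2 range for the deletion with PE reached 0 without SRFHKO replicate 2. The cause was not tested for any of these. Itgam and Cx3cr1 lay below the filter limit on some arrays, where the signal is imprecise.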
